A study of Homo sapiens with 9 samples.

Results

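The 9 genes described here encode replication-independent histone variants: H2AZ1, H2AZ2, H3-3A, H3-3B, H1-10, MACROH2A1, MACROH2A2, H2AX and H2AJ. They were taken by gene symbol from the deposited tables, which hold 51111 genes for the PABPN RIP, 51268 for the PABPC RIP and 51274 in either. Most core histones and linker histones are made in S phase from replication-dependent genes, whose messages carry no poly(A) tail and end just after a conserved stem-loop that the stem-loop binding protein SLBP holds. Histone variants are made throughout the cell cycle from messages that are spliced, where the gene has introns, and polyadenylated, so both poly(A) binding proteins have a tail to hold. H2AX is the exception among the 9, since its gene is known to give a short message that ends at a stem-loop and a longer one with a poly(A) tail.

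RNA immunoprecipitation (RIP) recovered the RNA held by PABPN, the nuclear protein of poly(A) tails, or by PABPC, its cytoplasmic counterpart, from wildtype HEK293T cells, an established line of human embryonic kidney origin. Cells were crosslinked with 0.1% formaldehyde for 10 min, and each of 3 lysates was divided between an anti-PABPN and an anti-PABPC antibody, which gave 3 PABPN RIP, 3 PABPC RIP and 3 input RNA libraries. Ribosomal RNA was removed and stranded libraries were read as single ends of 75 nt, with estimated totals of 36.5 to 52.2 M counted reads a library. The labels name no cell cycle synchronisation, no library of a control antibody was used here, and values of single libraries were not analysed here, so each gene has a group mean, a log2 fold change and a standard error (SE) over 3 RIP and 3 input libraries. Following the study's cut-offs, a gene was called enriched or depleted when its log2 fold change over input passed 0.5 or -0.5, its adjusted p was at most 0.01 and its mean normalised count over the 6 libraries (baseMean) was above 50. A fold change compares shares of the counted reads, so the total RNA that each antibody recovered does not enter it.

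The 3′ ends of the messages were read from GENCODE 44 transcripts on the hg38 genome, to show which of them carry the stem-loop that sets the replication-dependent class apart. A perfect histone stem-loop of 16 bases (arms of 6 bases around a loop of 4) lay behind the coding sequence in 1 of the 9 variants, H2AX, against 62 of 64 replication-dependent histone genes with a gene model and 122 of 20046 protein coding transcripts in all (0.609%). The stem-loop of H2AX, at chr11:119094893-119094918 on the minus strand, is set here beside that of the replication-dependent gene H3C2, at chr6:26031592-26031617 on the minus strand, with the stem-loop in capitals.
H2AX stem-loop: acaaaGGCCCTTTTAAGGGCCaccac
H3C2 stem-loop: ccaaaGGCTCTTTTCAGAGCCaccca
The H2AX stem-loop began 49 bases after the stop codon and left 1024 bases of the annotated transcript behind it, whereas that of H3C2 began 37 bases after the stop codon and lay 8 bases from the annotated end. A poly(A) signal lay near the annotated end of H2AX and of H2AZ1, H3-3B and H1-10, the other variants with the largest differences between the RIPs (signal in capitals).
H2AX poly(A) signal: tggactaattttATTAAAggattgtttttt
H2AZ1 poly(A) signal: gtggataagttcAATAAAggtcatatccca
H3-3B poly(A) signal: ggatgagactaaAATAAAatttttgaagtt
H1-10 poly(A) signal: ttttttgggcacAATAAAgcgtttaaacct
These stretches lie at chr11:119093881-119093910, chr4:99948090-99948119, chr17:75776436-75776465 and chr3:129314775-129314804, all on the minus strand. The letters AATAAA or ATTAAA were also found within the last 50 bases of H3-3A, MACROH2A2 and H2AJ, and not within those of the annotated main transcripts of H2AZ2 and MACROH2A1.

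Of the 9 genes, 8 passed the baseMean filter in both comparisons and H2AJ did not. With PABPC, 6 were enriched over input (H2AZ1, H2AZ2, H3-3B, H1-10, MACROH2A2 and H2AX), against 38.4% of all 14843 genes tested, and 1 was depleted (H3-3A), against 32.4%. With PABPN, 0 of the 8 were enriched, against 17.5% of all 15526 genes tested, and 3 were depleted (H2AZ1, H3-3B and H2AX), against 14.6%. Those 3 were thus depleted from PABPN and enriched with PABPC, as were 9.38% of the 14579 genes with an adjusted p in both comparisons. Of the 8 variants, 0 were depleted from both, against 2.83% of these genes. The median log2 fold change of the 8 was -0.48 with PABPN and 1.44 with PABPC, beside medians over all genes tested of -0.04 and 0.14.

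The difference between the RIPs, the log2 fold change with PABPN minus that with PABPC, was tested with a normal test on the summed squared SEs over all genes that passed the filter in both tables. It was called for all 8 tested variants at an adjusted p of at most 0.01 and a size above 0.5: 7 were higher with PABPC, against 33.4% of all 14581 genes tested, and H3-3A was higher with PABPN, against 36.1%. The median difference was -2.03 for the 8 variants and 0.07 for all genes. Both fold changes rest on the same 3 input libraries, and the test does not use that.

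**Figure D1:**
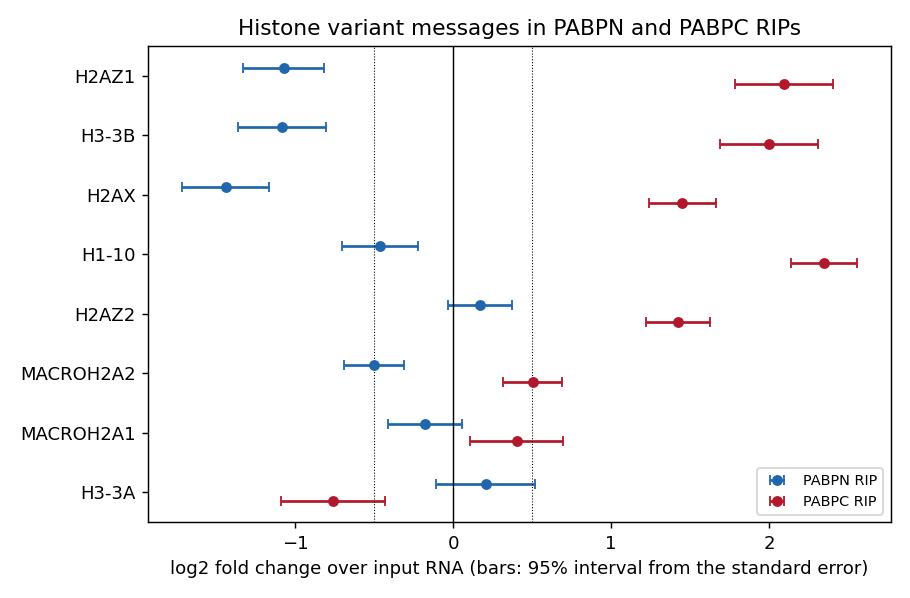
The log2 fold change over input RNA (x axis) is plotted for each of the 8 tested histone variant genes in the PABPN RIP (blue) and the PABPC RIP (red), with bars for the 95% interval from the SE and dotted lines at the cut-offs of -0.5 and 0.5. H3-3A is the gene whose red point lies to the left of its blue point.

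H2AZ1 and H2AZ2 encode near-identical forms of H2A.Z, the H2A variant placed in nucleosomes beside promoters. H2AZ1 (chr4:99948086-99950355, minus strand) had a mean of 9367 normalised counts in input and 4459 in the PABPN RIP, and of 8015 in input and 34238 in the PABPC RIP. Each table was scaled on its own, so the same 3 input libraries have different means in each. H2AZ1 was therefore 2.10-fold lower than input with PABPN (log2 fold change -1.07, SE 0.131, adjusted p = 5.33e-15) and 4.27-fold higher with PABPC (2.09, SE 0.157, adjusted p = 2.23e-39). The difference of -3.17 (95% interval -3.57 to -2.77, adjusted p = 1.15e-52) was the largest of the 8 variants, and 1.5% of the protein coding genes tested lay lower. H2AZ1 was also the most abundant of the variants in input per length, at 86.6 RPKM (reads per kilobase of the deposited gene length, scaled to the total of the library).

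H2AZ2 (chr7:44826791-44848087, minus strand) differed from H2AZ1 in the PABPN RIP. Its mean was 5463 in input and 6155 in the PABPN RIP, a log2 fold change of 0.17 (SE 0.103, adjusted p = 0.179) that did not pass the test. In the PABPC comparison its mean was 4672 in input and 12542 in the RIP, 2.68-fold higher (1.42, SE 0.103, adjusted p = 2.31e-42). Both H2A.Z messages were thus enriched with PABPC, and H2AZ1 lay 1.24 lower than H2AZ2 with PABPN on the log2 scale (difference -1.24, 95% interval -1.57 to -0.92) and 0.67 higher with PABPC (95% interval 0.30 to 1.04). Introns make up 67.1% of the annotated span of H2AZ2 and 0% of that of H2AZ1, where annotated exons of different transcripts together cover the whole gene.

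H3-3A and H3-3B encode the same protein, H3.3, which is placed at active genes and regulatory elements by the HIRA complex and at heterochromatin by DAXX and ATRX. The counts of these genes were called in opposite directions with PABPC. Those of H3-3A are uncertain as a measure of its mature message, as set out below. H3-3B (chr17:75776434-75785893, minus strand) had a mean of 7838 in input and 3706 in the PABPN RIP, 2.11-fold lower (log2 fold change -1.08, SE 0.141, adjusted p = 3.59e-13). With PABPC it went from 6708 in input to 26815 in the RIP, 4.0-fold higher (1.999, SE 0.157, adjusted p = 3.3e-36). The difference between the RIPs was -3.08 (95% interval -3.49 to -2.67, adjusted p = 6.06e-47).

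H3-3A (chr1:226061851-226072019, plus strand) had much lower counts, with a mean of 758 in input and 874 in the PABPN RIP (log2 fold change 0.21, SE 0.16, adjusted p = 0.324), which did not pass the test. With PABPC it went from 648 in input to 383 in the RIP, 1.69-fold lower (-0.76, SE 0.169, adjusted p = 1.7e-05), the 1 depletion from PABPC among the variants. A test that the change itself exceeds 0.5 did not call it (adjusted p = 0.203). Its difference between the RIPs was 0.97 (95% interval 0.51 to 1.42, adjusted p = 5.86e-05), which the test against 0.5 did not call either (adjusted p = 0.0828). Between the H3.3 genes, H3-3A minus H3-3B was 1.29 with PABPN (95% interval 0.87 to 1.70) and -2.76 with PABPC (95% interval -3.21 to -2.31). The H3-3A values are uncertain as a measure of its mature message: of the 996 stretches of 75 bases in its main spliced transcript, 909 (91.3%) also occur exactly elsewhere in the genome, at 9 other places, so a read of that length does not place itself. The share was 5.09% for H3-3B, 4.4% for H2AZ2, 2.15% for H2AZ1 and 0% for the other 5 variants. How reads with several matches were counted is not given in the sources used here, introns make up 62.4% of the H3-3A span and reads in introns were counted, and the part of these facts in the H3-3A values was not tested.

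H3-3A stood at 3.17 RPKM in input against 26.8 for H3-3B, above 28.6% and 89.5% of protein coding genes. The listed processed pseudogenes of the H2A.Z and H3 families, 45 in number, took few counts: none had a baseMean above 50 in either comparison, 24 were at 0 in both, and the highest was H2AZP3 at 28.5 in the PABPC comparison.

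H2AX encodes the H2A variant that is phosphorylated around DNA breaks. The gene is a single exon (chr11:119093874-119095465, minus strand), so its counts sum the stem-loop and the polyadenylated forms and do not tell them apart. Its mean fell from 3433 in input to 1266 in the PABPN RIP, 2.71-fold lower (log2 fold change -1.44, SE 0.141, adjusted p = 7.69e-23). This was the lowest PABPN value of the 8 variants, and 1.3% of the protein coding genes tested lay lower. With PABPC it rose from 2936 in input to 8021, 2.73-fold higher (1.45, SE 0.109, adjusted p = 1.68e-39). The difference was -2.89 (95% interval -3.24 to -2.54, adjusted p = 8.36e-58).

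Other histone genes with a stem-loop had lower values with PABPC. H2AW, H2BU1 and H4-16, histone genes outside the large clusters (H2AC25, H2BC26 and H4C16 in GENCODE 44), each have a stem-loop that lies 4 or 5 bases from the annotated end. The stem-loops are at chr1:228457364-228457389 (minus strand), chr1:228458533-228458558 (plus strand) and chr12:14770720-14770744 (minus strand).
H2AW stem-loop: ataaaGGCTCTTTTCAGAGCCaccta
H2BU1 stem-loop: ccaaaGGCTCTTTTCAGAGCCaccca
H4-16 stem-loop: caaaaGGCCCTTTTCAGGGCCccca
All 3 were depleted from both RIPs. The PABPN and PABPC log2 fold changes were -3.65 (SE 0.138) and -1.17 (SE 0.175) for H2AW, -4.37 (SE 0.141) and -2.11 (SE 0.203) for H2BU1, and -3.27 (SE 0.14) and -2.38 (SE 0.16) for H4-16. The value of H2AX with PABPC, 1.45, lay on the other side of input from all of them.

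MACROH2A1 and MACROH2A2 encode the macroH2A histones, H2A variants with a large non-histone macro domain that are abundant on the inactive X chromosome. In the PABPC RIP both stayed nearest to input. MACROH2A1 (chr5:135334381-135399914, minus strand) had a mean of 10969 in input and 9691 in the PABPN RIP (log2 fold change -0.18, SE 0.12, adjusted p = 0.239), and of 9384 in input and 12402 in the PABPC RIP (0.40, SE 0.15, adjusted p = 0.0135). Neither was called, and the difference of -0.58 was (95% interval -0.96 to -0.20, adjusted p = 0.00372), though not in a test against 0.5 (adjusted p = 0.962).

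MACROH2A2 (chr10:70052544-70112282, plus strand) sat on the cut-off in both comparisons. Its mean was 3273 in input and 2315 in the PABPN RIP, a log2 fold change of -0.50 (SE 0.0953, adjusted p = 1.15e-06) that fell just short of the size cut-off and was not called. In the PABPC comparison it was 2799 in input and 3968 in the RIP (0.50, SE 0.0952, adjusted p = 3.55e-07), just past the cut-off, and this call was lost (0.36) when fold changes were centred on the median of all genes. Its difference was -1.004 (95% interval -1.27 to -0.74, adjusted p = 3.03e-13). MACROH2A1 minus MACROH2A2 was 0.32 with PABPN (95% interval 0.02 to 0.62) and -0.10 with PABPC (95% interval -0.45 to 0.25), so in the PABPC RIP their difference was not larger than its error. Both genes have 9 exons, and introns make up 74% and 74.9% of their spans.

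H1-10 encodes a replication-independent linker histone, the protein class that binds DNA where it enters and leaves the nucleosome. This single-exon gene (chr3:129314771-129316286, minus strand) had the highest PABPC value of the variants. It went from a mean of 2069 in input to 10533 in the RIP, 5.09-fold higher (log2 fold change 2.35, SE 0.106, adjusted p = 5.04e-107), above 99.1% of the protein coding genes tested. With PABPN its mean was 2421 in input and 1759 in the RIP (-0.46, SE 0.124, adjusted p = 0.000794), short of the size cut-off and not called. The difference was -2.81 (95% interval -3.13 to -2.49, adjusted p = 3.49e-65). The lncRNA H1-10-AS1 overlaps H1-10 on the opposite strand over 895 bases of the current annotation and was enriched with both proteins, its log2 fold change being 1.22 (SE 0.125) for PABPN and 0.77 (SE 0.113) for PABPC. The authors removed stretches shared by overlapping genes from the annotation. The deposited length of H1-10 was 1516 bases, the whole annotated span, and does not show whether this stretch was among them. The strand setting of the counting is not given in the sources used here. H1-10 is not the only variant with such an overlap. Genes on the opposite strand overlap MACROH2A1 by up to 23839 bases and MACROH2A2 by up to 14060 bases. Such genes also overlap H3-3B by up to 1088 bases, H2AZ1 by 350 and H3-3A by 48. The part of these overlaps in the values was not tested.

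H2AJ (chr12:14774405-14778002, plus strand) encodes an H2A variant known to accumulate in senescent cells. Its baseMean was 0.975 in the PABPN comparison and 2.48 in the PABPC comparison, so its message was hardly detected in these cells and did not pass the baseMean filter.

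**Figure D2:**
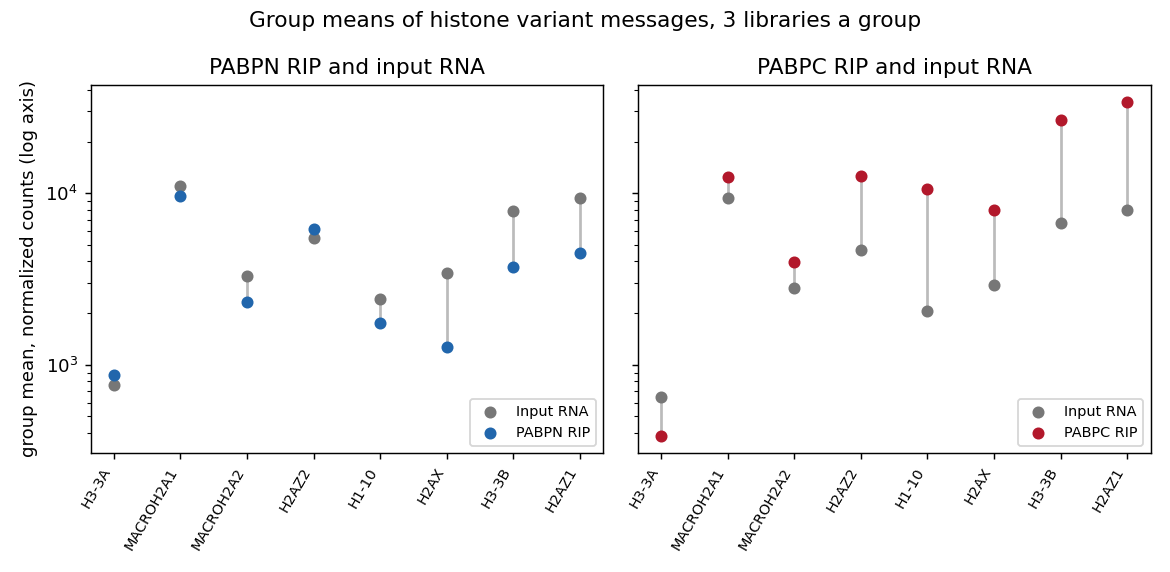
Group means in normalised counts (y axis, log scale) are plotted for input RNA (grey) and RIP (colour) of the 8 tested genes, in the PABPN comparison (left) and the PABPC comparison (right). Lines join the means of 1 gene, and the panels were scaled separately. H2AZ1 reaches 34238 in the PABPC RIP, and H3-3A is the lowest gene in both panels.

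Ordered by the difference between the RIPs, the variants ran from H2AZ1 (-3.17) through H3-3B (-3.08), H2AX (-2.89), H1-10 (-2.81), H2AZ2 (-1.25), MACROH2A2 (-1.004) and MACROH2A1 (-0.58) to H3-3A (0.97). Intervals of the first 4 overlapped one another, as did those of H2AZ2 and MACROH2A2 and those of MACROH2A2 and MACROH2A1. The interval of H1-10 did not reach that of H2AZ2, and the interval of MACROH2A1 did not reach that of H3-3A. The 4 genes with differences below -2.8 stood at 86.6 (H2AZ1), 44.6 (H2AX), 33.5 (H1-10) and 26.8 (H3-3B) RPKM in input. MACROH2A2, with a difference of -1.004, stood at 35.5. Its deposited length was 1932 bases, while introns make up 74.9% of its annotated span and intronic reads were counted. Its level is therefore not directly comparable with the others, and a link between level and difference was not tested.

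By their medians, the replication-dependent histone genes lay far from the variants in both comparisons. Of 66 listed, 46 of 47 tested were depleted from PABPN (median -4.64), beside 14.6% of all genes. With PABPC, 45 of 46 tested were depleted (median -2.85), beside 32.4%. H3C2, shown above, was lowest with PABPN at -5.58 (SE 0.129), H2BC17 was in the middle at -4.64 (SE 0.139), and H4C4 was lowest with PABPC at -3.63 (SE 0.135). H2BC9 was in the middle with PABPC at -2.86 (SE 0.17). The gene that was called in neither was H2BC6, at 0.27 (SE 0.185) and -0.52 (SE 0.228). Its span of 12597 bases in GENCODE 44 extends well beyond its single-exon histone transcript of 470 bases. The part of this in its values was not tested. The lowest variant with PABPN, H2AX at -1.44, thus lay above the median of this class, and the variants enriched with PABPC had no counterpart in it, since 0 of its 46 tested genes were enriched. Relative to each other the RIPs still differed for these genes: 41 of 46 were higher with PABPC and 1 was higher with PABPN, beside 33.4% and 36.1% of all genes. The median difference was -1.92 beside -2.03 for the variants.

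CENPA, the H3 variant of centromeres, also has a polyadenylated message. It was not called with PABPN (0.08, SE 0.137), was enriched with PABPC (1.53, SE 0.156), and was higher with PABPC, with a difference of -1.44. Most of the other listed variants that did not pass the filter are genes known from the germ line.

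**Figure D3:**
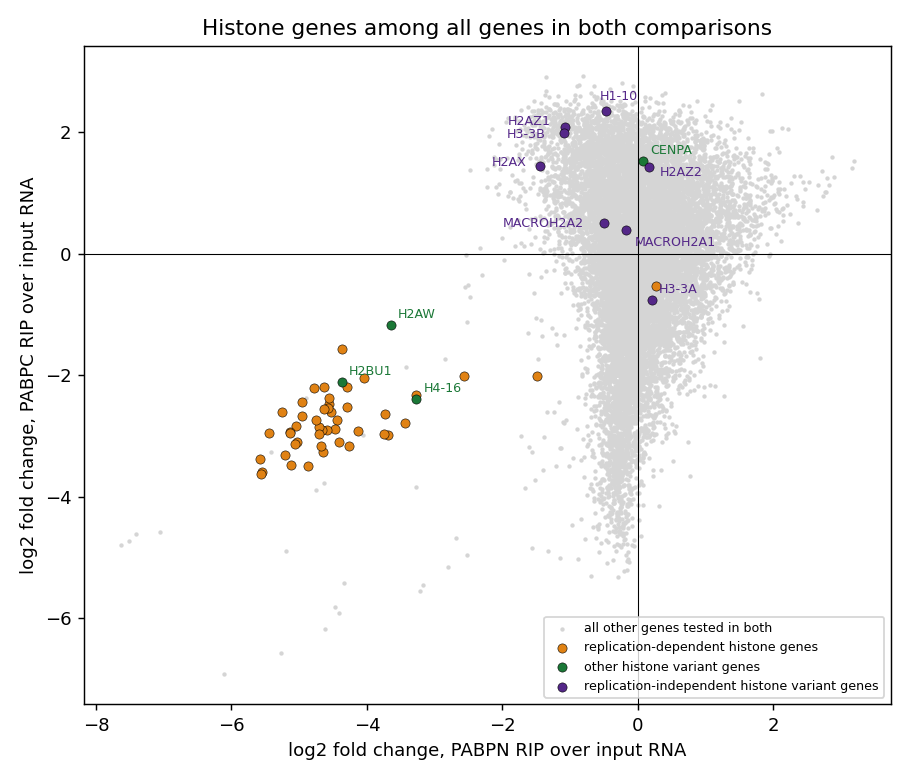
Each point is a gene tested in both comparisons. It is placed by its log2 fold change over input RNA in the PABPN RIP (x axis) and in the PABPC RIP (y axis). The 8 histone variant genes are purple, replication-dependent histone genes orange and 4 other histone genes green. The green genes, labelled other histone variant genes, are CENPA, H2AW, H2BU1 and H4-16. H2AW, H2BU1 and H4-16 have a stem-loop near the annotated end. The purple points lie between -1.44 and 0.21 on the x axis, and the orange points have a median of -4.64.

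Messages for proteins that place or remove these variants were called in both directions, several of the counts being near the shares of all genes given above. Of 31 genes for histone chaperones and remodellers, 2 were enriched and 9 depleted with PABPN (median -0.26), beside 17.5% and 14.6% of all genes. With PABPC, 13 were enriched and 7 depleted (median 0.29), beside 38.4% and 32.4%. Between the RIPs, 15 were higher with PABPC and 11 with PABPN, beside 33.4% and 36.1%, with a median difference of -0.49. The lowest differences were those of ZNHIT1 (-2.32) and VPS72 (-2.30), subunits of the SRCAP complex that exchanges H2A.Z into nucleosomes, and of ANP32E (-2.27), a chaperone that removes H2A.Z. The highest were those of the remodeller CHD2 (1.38), of ATRX (1.59), a partner of DAXX in placing H3.3, and of APLF (2.41), a DNA repair factor that binds histones.

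Among 19 genes for factors that form the 3′ end of replication-dependent histone messages or degrade them, 1 was enriched and 8 were depleted with PABPN (median -0.17), beside 17.5% and 14.6% of all genes. With PABPC, 8 were enriched and 4 depleted (median 0.37), beside 38.4% and 32.4%. Between the RIPs, 11 were higher with PABPC and 2 with PABPN, beside 33.4% and 36.1%, with a median difference of -0.80. SNRPB (-2.82), LSM10 (-2.47) and SNRPD3 (-2.16), which encode proteins of the ring of the U7 snRNP, had the lowest differences. CASP8AP2 (1.36) and NPAT (1.07), which act at the histone locus body, had the highest, followed by SYMPK at 0.48, whose difference was not called.

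The 5 protein coding genes nearest to the median position of the variants (-0.48 with PABPN and 1.44 with PABPC), of 12444 compared by distance on the log2 scale over both fold changes, were HTATIP2 (0.0206 away), POP4 (0.0266), TWF1 (0.032), ATPAF1 (0.032) and BCL7B (0.0347). The PABPN value of HTATIP2 was -0.47 (SE 0.153) and its PABPC value was 1.45 (SE 0.142). None of the 5 encodes a histone.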

How the data were processed

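The 9 RIP and input libraries entered 2 tables deposited by the authors, each comparing 3 RIP with 3 input libraries. The authors aligned reads to hg38 with STAR, counted exonic and intronic reads per gene with featureCounts 2.0.2 on an annotation derived from GENCODE 34, removed stretches shared by overlapping genes and genes with upstream transcription, and ran DESeq2. The design formula, multiple-match handling and strand setting are not given in the sources used here. The deposited columns are a signal (baseMean, mean normalised count over 6 libraries), the log2 fold change with its SE, the Wald score, the p-value with its adjusted p-value, and a gene length. These columns are the authors' own DESeq2 comparisons, and no other values were used here. The adjusted p-values of each RIP against input are those the authors deposited from DESeq2.

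Group means were computed from baseMean and fold change. Each table held 123 repeated rows, of which the first was kept. Depth was estimated from the lowest baseMean values, each the share of 1 read in 1 library. The difference test adjusted p-values over all genes with the Benjamini-Hochberg method. Its calculation was checked on simulated normal fold changes drawn at the deposited SEs, which cannot show how the test holds for these counts. Levels per length divide input means by the deposited length, although intronic reads were counted. Intervals are 95% normal intervals from the SE, which measures spread over 3 lysates. Differences between gene pairs treat both errors as independent and carry no p. Sequences and coordinates are from GENCODE 44, hg38. The exact 75-base matches were sought on both strands of the primary chromosomes. Python 3.11.15, pandas 2.3.3, numpy 2.4.6, scipy 1.17.1 and matplotlib 3.10.9 were used.

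The members and gene lists were chosen with earlier results of these data known. Named were the 9 members, the lowest, middle and highest replication-dependent gene, tested other variants (1 is not reported here), the 3 lowest and 3 highest differences of the chaperone and 3′ end lists, and the 5 genes nearest the median. H4C3 and H2AC7, lowest and middle of the replication-dependent differences, had -2.81 and -1.91. H2AZP3 was named after its value was seen. Alternatives were other cut-offs, filters, centring, adjustment, a test against 0.5 and an error without the shared input.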

Additional observations from a re-analysis of the deposited data

Results flagged for a closer look

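The effect over input of all 8 tested histone variant genes differed between the RIPs by a test of the difference itself. Of these, 7 were higher with PABPC, beside 33.4% of all 14581 genes tested, and 1 was higher with PABPN, beside 36.1%. Such a call was thus common among all genes. In the Wald test against 0.5, the calls of MACROH2A1 (adjusted p = 0.962) and H3-3A (adjusted p = 0.0828) were lost. The PABPN minus PABPC log2 differences were -3.17 for H2AZ1, -3.08 for H3-3B, -2.89 for H2AX, -2.81 for H1-10, -1.25 for H2AZ2, -1.004 for MACROH2A2, -0.58 for MACROH2A1 and 0.97 for H3-3A. H3-3A was the 1 gene of the 8 on the PABPN side, and 91.3% of the 75-base stretches of its main spliced transcript also occur elsewhere in the genome, whose part was not tested.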

How the results depend on the processing

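No paired analysis was possible because no values of single libraries were used, and for that reason neither the fit with the replicate number as a block nor leaving out each replicate was run. Of the counts of genes called, 215 stayed within 1.5 times the value given under an alternative and 25 did not. Of the single values of the variants, 181 kept their direction and their side of the threshold, 9 lost a call, 2 gained one and 0 reversed. With no log2 cut-off, 5 variants were depleted from PABPN (H1-10 and MACROH2A2 added to H2AX, H2AZ1 and H3-3B) and 4 chaperone genes were enriched with PABPN. Shares of all genes called were not computed under the alternatives, so these counts cannot be set against the shares given above. With a cut-off of 1, and also with a Wald test against 0.5, 0 variants were depleted from PABPC and 0 were higher with PABPN, since H3-3A lost both calls (adjusted p = 0.203 and 0.0828 in the Wald test). MACROH2A1 (difference) and MACROH2A2 (PABPC) lost their calls under both too. Under a cut-off of 1, chaperone genes numbered 1 enriched and 2 depleted with PABPN, 7 enriched with PABPC and 4 higher with PABPN, against 1, 2, 8 and 4 in the Wald test. The 3′ end factors numbered 0 enriched and 0 depleted with PABPN and 2 depleted from PABPC under a cut-off of 1, against 0, 1 and 2 in the Wald test. The replication-dependent gene higher with PABPN, H2BC6, was lost (0 genes) under a cut-off of 1, the Wald test, a baseMean above 200, no baseMean filter and centring. The counts of variants called were the same with the shared input taken out of the error. H2AJ had too few reads to pass the baseMean filter. Retained introns, message forms of H2AX and background binding to the beads or antibody cannot be read from these gene totals.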
